A study of Ovis aries with 32 samples.

Results

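The genes described here are 37 genes of fatty acid oxidation in mitochondria and peroxisomes, in perirenal preadipocytes of fetal sheep and in the adipocytes differentiated from them in culture. They were chosen as a named list, with earlier results of these data known. A member was taken from the deposited RNA-seq table by its gene name, with the values of all transcripts of one gene identifier summed. Of the 37 members, 34 were found by name, with 73 transcripts among them, and all 34 reached a sum of 10 in at least 4 of the 32 libraries. Of all 21271 genes of the deposited data, 12737 did so. SLC22A5 (the plasma membrane carnitine transporter), ACADM (the medium-chain acyl-CoA dehydrogenase) and ECI2 (an enoyl-CoA isomerase) were not found by name and are not analysed here.

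The 32 libraries fall into 8 groups of 4. Preadipocytes came from control males (MC), control females (FC), growth-restricted males (MFGR) and growth-restricted females (FFGR), and the same 4 origins after differentiation are MCD, FCD, MFGRD and FFGRD. To restrict growth, the study kept pregnant Columbia-Rambouillet crossbred ewes at raised ambient temperature through mid-gestation, which makes the placenta insufficient, whereas control ewes were kept in a cool room and pair-fed. All fetuses were singletons taken near term. Perirenal fat is a visceral depot around the kidney. The labels do not say whether libraries of a group came from separate fetuses, so every p-value measures only the spread between these libraries.

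Fatty acids enter mitochondria as carnitine esters, through CPT1 on the outer membrane, the carrier SLC25A20 and CPT2 on the inner membrane. Each turn of the β-oxidation spiral then shortens the chain in a dehydrogenation, a hydration, another dehydrogenation and a thiolytic step, and electrons leave through the electron transfer flavoprotein (ETFA and ETFB) and its dehydrogenase ETFDH. Peroxisomes take up very long and branched chains through ABCD transporters and shorten them with their own oxidases, bifunctional enzymes and thiolases, and the products pass on to mitochondria as carnitine esters. In fat cells oxidation runs beside storage, and the perirenal fat of newborn lambs is known for burning fatty acids for heat.

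Values are read counts normalized by the authors over all 32 libraries, summed per gene, and they are not corrected for gene length, so levels are compared between libraries and never between genes. The libraries hold approximately 7.78 to 21.3 M reads (median 13.4 M), and 1 read is worth 0.696 to 1.79 in these units, depending on the library. A value of 10 therefore stands for 5.58 to 14.4 reads. Tests are from limma on log2(value + 1), fitted once over all 12737 genes and 32 libraries with a mean for each group. A gene is called, and said to rise or fall, at a Benjamini-Hochberg adjusted p-value under 0.05 over all genes and a change above 1.5-fold on that scale. A log2 fold change is given with its standard error (SE).

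The labelled cell types were compared with marker genes. The sum of 11 adipocyte markers found by name, among them ADIPOQ, FABP4 and PLIN1, lay between 233 and 2195 in the 16 preadipocyte libraries and between 5208 and 189500 in 15 of the 16 differentiated libraries. The library labelled FCD replicate 4 stood at 585, inside the preadipocyte range, which for these markers goes against its label. It is kept in its group, and values that rest on it are also given without it. The preadipocyte marker DLK1 was listed at 0 in 25 of 32 libraries and nowhere above 2.34, whereas the sum of 10 fibroblast and preadipocyte markers was high in both stages (171600 to 1296000 and 92680 to 947800). That sum was mostly COL1A1 and COL3A1. The endothelial markers CDH5 and TIE1 were listed at 0 in 25 and 30 libraries, and the sums of endothelial (6 genes), immune (6) and mesothelial markers (2 of 4 found) were at most 286, 1038 and 156. The median immune sum was 164 in preadipocytes and 319.5 in differentiated cells, where CD163 (2.85, SE 0.73) and CD14 (1.86, SE 0.35) were called higher and CD68 (−0.81, SE 0.31) lower on the log2 scale. The sum of 5 smooth muscle and pericyte markers was 1404 to 10990 in preadipocytes and 139 to 1616 in differentiated cells, mostly CNN1. By this sum FCD replicate 4, at 1076, lay below every preadipocyte library, as its label says. The part of these markers in the results was not tested. In bulk RNA, fewer cells of a type and less RNA per cell cannot be told apart.

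A further 9 libraries stand apart in how values relate to the genomic span of genes. Across genes, the slope of log2 values on log2 span was 0.152 or more in 23 libraries and below 0.1 in MCD replicates 2 and 4, MFGR replicate 1, MFGRD replicate 1, FC replicate 2, FCD replicate 2, FFGR replicates 2 and 3 and FFGRD replicate 3. Among preadipocytes, 18 of 34 members had their highest value in one of the 4 such libraries, and among differentiated cells 23 of 34 had it in one of the 5. FFGRD replicate 3 alone was the highest differentiated library for 18 members, and FFGR replicate 2 the highest preadipocyte library for 15. In the heatmap of all members these 2 libraries appear as columns of high values through most of the later steps of the spiral. The part of this difference in the results was not tested, and calls that were lost without the 9 libraries are named.

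**Figure D1:**
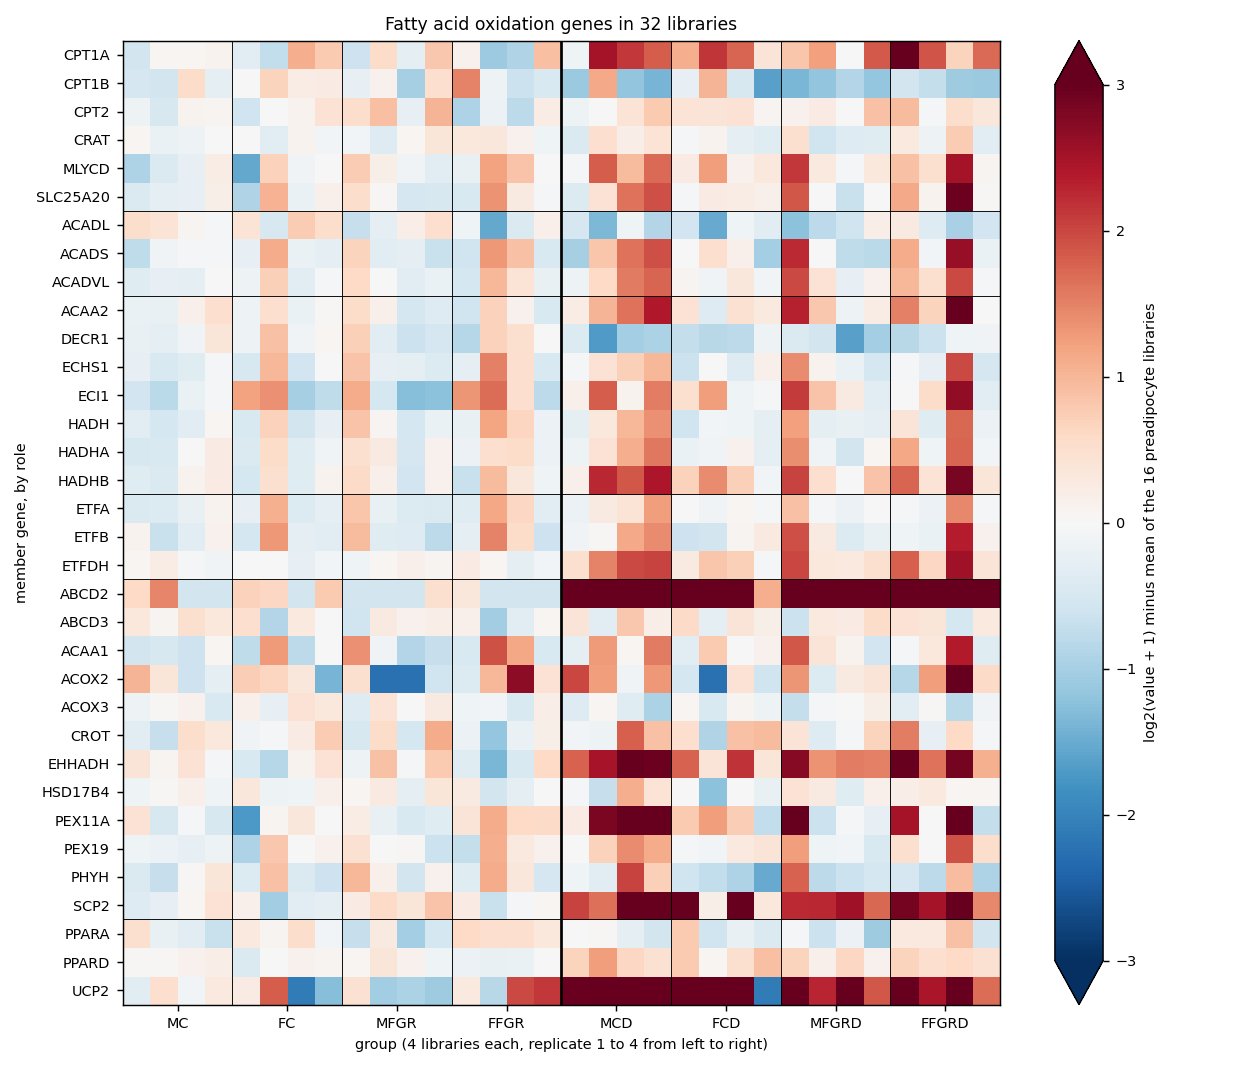
Heatmap of log2(value + 1) minus the mean of the 16 preadipocyte libraries for the 34 members found (rows, by role) in 32 libraries (columns, by group). ABCD2, SCP2, EHHADH and UCP2 are red across most of the right side (differentiated cells), CPT1B and DECR1 are mostly blue there, and the colour scale is clipped at 3 in either direction.

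Differentiation was followed by a rise of part of the oxidation genes and a fall of a few. In the mean of the 4 differentiation responses (16 libraries against 16), 14 of 34 members were called, or 41.2%, against 27.2% of all genes. Of these, 11 rose, or 32.4% of the members against a background of 12.4%, and 3 fell, or 8.82% against 14.8%. The median log2 fold change was 0.45 over the members and 0.03 over all genes, and 27 of 34 members lay above 0 against 52.4% of all genes. The list was chosen with earlier results of these data known, so these shares are not independent of them. The rises were those of ABCD2, UCP2, SCP2, EHHADH, CPT1A, PEX11A, HADHB, ETFDH, ACAA2, MLYCD and ACADVL, and the falls those of CPT1B, DECR1 and ACADL. Of the rises, ABCD2 and UCP2 passed the filter only with their differentiated libraries. Across the 4 separate responses, 16 members were higher after differentiation in all 4 (47.1%, against 25.4% of all genes), and 3 were lower in all 4 (8.82%, against 25.9%). Without the 9 libraries of low span slope, 11 members were called, 10 higher and 1 lower, against 11.5% and 16.5% of all genes. In the plot of mean responses most members of every role lie to the right of 0, but the intervals of many include it.

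**Figure D2:**
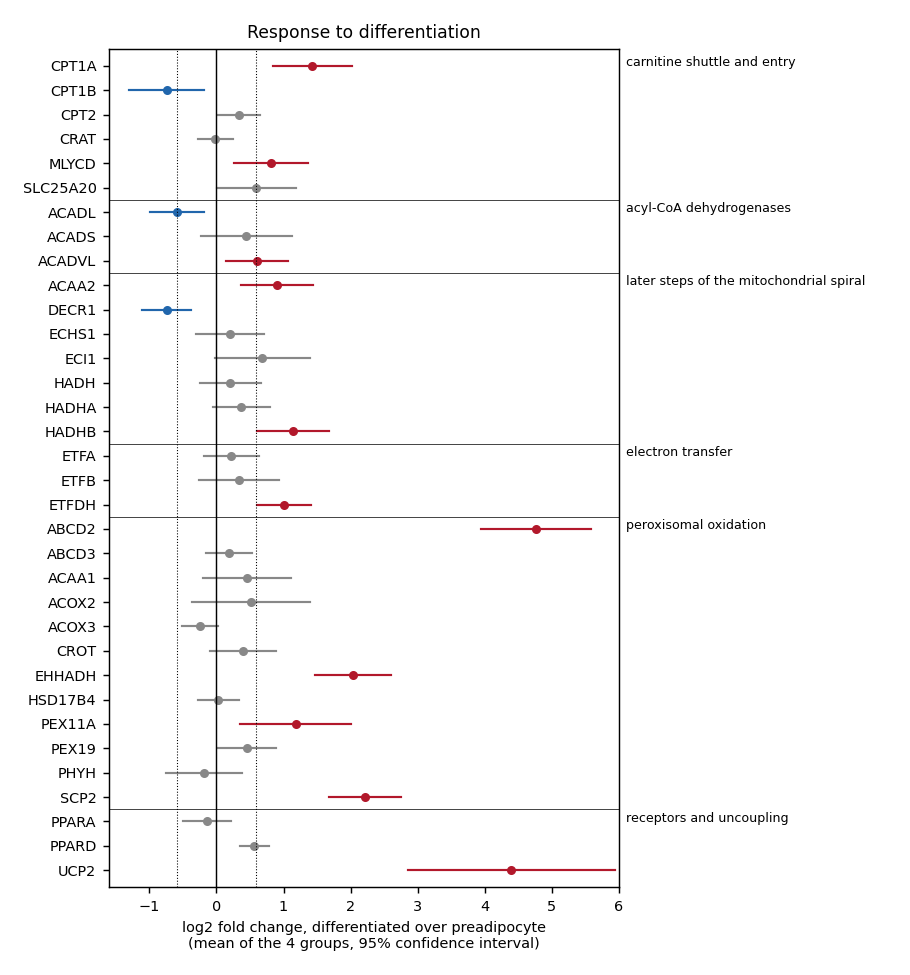
Log2 fold change of each member in the mean of the 4 differentiation responses, with its 95% confidence interval, by role. Red marks members called higher (11), blue members called lower (3) and grey those not called (20), and dotted lines stand at 1.5-fold.

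At the entry of fatty acids into mitochondria, 2 of 6 members rose and 1 fell. CPT1A and CPT1B are isoforms of carnitine palmitoyltransferase 1, the step that commits long-chain acyl-CoA to oxidation, CPT1A being the liver isoform and CPT1B the muscle isoform. CPT1A in preadipocytes was listed at 141, 216, 217 and 224 in MC, at 167, 124, 439 and 355 in FC, at 135, 304, 169 and 365 in MFGR and at 228, 97.4, 111 and 386 in FFGR. CPT1A after differentiation was listed at 189, 1181, 910.1 and 728 in MCD, at 444, 912, 693 and 272 in FCD, at 372, 489.7, 207 and 740.2 in MFGRD and at 1738, 768, 328 and 671 in FFGRD. CPT1A rose by a log2 fold change of 1.43 (SE 0.29, limma adjusted p = 0.000298). The differentiated values were above every preadipocyte value in 11 libraries, and MCD replicate 1, FCD replicate 4, MFGRD replicates 1 and 3 and FFGRD replicate 3 lay within the preadipocyte range.

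CPT1B in preadipocytes was listed at 7.35, 7.12, 16.4 and 8.62 in MC, at 11.01, 17.8, 12.9 and 13.1 in FC, at 9.07, 11.96, 4.96 and 15.9 in MFGR and at 32.2, 9.75, 6.59 and 7.58 in FFGR. CPT1B after differentiation was listed at 4.496, 25.00, 4.21 and 3.497 in MCD, at 9.08, 23.2, 7.54 and 2.82 in FCD, at 3.59, 4.196, 5.42 and 4.31 in MFGRD and at 7.12, 6.22, 4.69 and 4.49 in FFGRD. CPT1B fell by 0.75 on the log2 scale (SE 0.28, adjusted p = 0.0372). In 9 differentiated libraries it lay below every preadipocyte library, and in MCD replicate 2 and FCD replicate 2 it was instead near the upper end. CPT1B is known from few reads in every library, and its call was lost when any of 12 libraries was left out (adjusted p 0.0061 to 0.0675 over the 32 such fits), which included FCD replicate 4. The limma call was also lost with quantile scaling (adjusted p = 0.0703), with no filter on low values (0.0602) and with the highest transcript in place of the sum (0.0810). The log2 ratio of CPT1A to CPT1B within a library, taken like the other ratios from value + 1, had a median of 4.26 (2.73 to 5.50) in preadipocytes and 6.34 (5.02 to 7.74) in differentiated cells, and it lay above the whole preadipocyte range in 12 of 16 differentiated libraries.

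MLYCD, malonyl-CoA decarboxylase, breaks down the malonyl-CoA that inhibits CPT1. MLYCD in preadipocytes was listed at 67.3, 95.8, 109 and 151 in MC, at 43.9, 211, 121 and 131 in FC, at 219.9, 146, 119 and 102 in MFGR and at 110.3, 302, 233 and 128 in FFGR. MLYCD after differentiation was listed at 126, 461, 249.9 and 422 in MCD, at 154, 308, 142 and 163 in FCD, at 568, 158, 126 and 161 in MFGRD and at 237, 182, 731 and 136 in FFGRD. MLYCD rose by a log2 fold change of 0.81 (SE 0.27, adjusted p = 0.0204), and 5 differentiated libraries exceeded every preadipocyte library. Those 5, MCD replicates 2 and 4, FCD replicate 2, MFGRD replicate 1 and FFGRD replicate 3, are the 5 differentiated libraries of low span slope.

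The other 3 entry members were not called. SLC25A20, the carnitine-acylcarnitine carrier, had medians of 280 in preadipocytes and 347 in differentiated cells and a log2 fold change of 0.59 (SE 0.29, adjusted p = 0.118). CPT2, which returns the acyl group to coenzyme A in the matrix, had medians of 260.2 and 324 and a log2 fold change of 0.34 (SE 0.15, adjusted p = 0.0916). CRAT, the carnitine acetyltransferase, stood at −0.01 (95% confidence interval −0.27 to 0.25).

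Of the 3 acyl-CoA dehydrogenases, which open the spiral, 1 rose and 1 fell. ACADVL, for very long chains, ranged from a lowest value of 1494 through a median of 2309 to a highest of 6923 in differentiated cells, against a median of 1558 and a highest of 3487 in preadipocytes. It rose by a log2 fold change of 0.60 (SE 0.22, adjusted p = 0.0384), and 5 differentiated libraries exceeded all preadipocyte libraries. That call was lost in 17 of the 32 fits that left out 1 library (adjusted p 0.0143 to 0.0674), among them those without MCD replicates 3 or 4, MFGRD replicate 1 or FFGRD replicates 1 or 3. It was lost too with no filter on low values (limma adjusted p = 0.0531) and with the highest transcript, where the log2 fold change of 0.57 stayed under 1.5-fold. ACADVL lies on chromosome 11 (36414027 to 36421963, Oar_rambouillet_v1.0), where its span overlaps that of DLG4 by 1686 bases, so reads of the 2 genes may be shared. ACADL, for long chains, ran from 114 through a median of 218 to 395 in differentiated cells, with a preadipocyte median of 356 and highest value of 550.2. ACADL fell by 0.59 on the log2 scale (SE 0.20, adjusted p = 0.0199), barely past 1.5-fold, and it moved under that limit in 16 of 32 fits that left out 1 library (−0.68 to −0.52) while its adjusted p stayed at 0.0363 or less. The change was also under that limit without the 9 libraries of low span slope (−0.56, adjusted p = 0.00451) and with span slope as a covariate (−0.57, adjusted p = 0.000178). ACADS, for short chains, had a log2 fold change of 0.45 (SE 0.33, adjusted p = 0.338), and its differentiated values spread from 76.4 in FCD replicate 4 to 955 in FFGRD replicate 3.

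Among the later steps of the mitochondrial spiral, 2 of 7 members rose and 1 fell. HADHA and HADHB encode the α and β subunits of the mitochondrial trifunctional protein, which carries out the last 3 steps on long chains, and they are neighbours on chromosome 3. HADHA spans 34955680 to 34998054 and HADHB 34998383 to 35026626, with 328 bases between them. HADHB in preadipocytes was listed at 479.5, 454, 659.7 and 723 in MC, at 426, 858, 478 and 655 in FC, at 909.5, 685, 409 and 667 in MFGR and at 386, 1187, 779 and 560.0 in FFGR. HADHB after differentiation was listed at 688, 2944, 2219 and 3322 in MCD, at 993, 1645, 1004 and 584 in FCD, at 2505, 872, 616 and 1107 in MFGRD and at 2069, 816, 4400.0 and 786 in FFGRD. HADHB rose by a log2 fold change of 1.14 (SE 0.26, adjusted p = 0.00112), with 7 differentiated libraries above every preadipocyte library. HADHA, in contrast, had medians of 3418 and 3516 in the stages and a log2 fold change of 0.37 (SE 0.21, adjusted p = 0.186). Its highest differentiated value, 11940, was that of FFGRD replicate 3.

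The log2 ratio of HADHB to HADHA had a median of −2.53 (−3.03 to −2.08) in preadipocytes and −1.90 (−2.30 to −0.69) in differentiated cells, and in 13 of 16 differentiated libraries it lay above every preadipocyte library. The mean difference was 0.77 (0.88 in MC, 0.80 in FC, 0.67 in MFGR and 0.71 in FFGR), with a standard deviation of 0.35 within groups. It was 0.62 without the 9 libraries of low span slope. This pair and the others given as ratios were chosen after their values were seen, and no test is attached to them.

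ACAA2 is the mitochondrial thiolase that releases acetyl-CoA. ACAA2 in preadipocytes was listed at 787, 777, 996 and 1278 in MC, at 812, 1287, 781 and 922 in FC, at 1322, 1011, 631 and 696 in MFGR and at 596, 1463, 992 and 659 in FFGR. ACAA2 after differentiation was listed at 1046, 1822, 2804 and 4794 in MCD, at 1230.0, 695, 1248 and 1100.0 in FCD, at 4446, 1577, 815 and 1061 in MFGRD and at 2576, 1445, 7139 and 899 in FFGRD. ACAA2 rose by a log2 fold change of 0.90 (SE 0.26, adjusted p = 0.00821). Its 7 libraries above the preadipocyte range were MCD replicates 2, 3 and 4, MFGRD replicates 1 and 2 and FFGRD replicates 1 and 3, and none was an FCD library.

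DECR1, the 2,4-dienoyl-CoA reductase, prepares polyunsaturated chains for the spiral. DECR1 in preadipocytes was listed at 286, 278, 310.5 and 427 in MC, at 301, 610.2, 309.7 and 348 in FC, at 548, 269, 213 and 233 in MFGR and at 184, 536, 464 and 328 in FFGR. DECR1 after differentiation was listed at 252, 102, 164 and 171 in MCD, at 204, 187, 194 and 299 in FCD, at 247, 229, 107 and 164 in MFGRD and at 186, 213, 302 and 312 in FFGRD. DECR1 fell by 0.74 on the log2 scale (SE 0.18, adjusted p = 0.00174). MCD replicates 2, 3 and 4 and MFGRD replicates 3 and 4 lay below every preadipocyte library, and the stages otherwise overlapped. Without the 9 libraries of low span slope, the decrease was 0.45 on the log2 scale, under 1.5-fold. The remaining members of the spiral were not called, with log2 fold changes of 0.68 (SE 0.34, adjusted p = 0.132) for the isomerase ECI1, 0.21 (SE 0.22) for the short-chain dehydrogenase HADH and 0.20 (SE 0.24) for the hydratase ECHS1. ECI1 was called with the replicate block (adjusted p = 0.0320), with span slope as a covariate (0.00651) and with library weights (0.0155). All 3 had their highest value of either stage in FFGR replicate 2 or FFGRD replicate 3.

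Of the 3 electron transfer members, 1 rose. ETFDH passes the electrons of the acyl-CoA dehydrogenases from the flavoprotein to ubiquinone. ETFDH in preadipocytes was listed at 428, 479, 401 and 381 in MC, at 412, 414, 343 and 386 in FC, at 377, 428, 458 and 434 in MFGR and at 488, 429, 333 and 389 in FFGR. ETFDH after differentiation was listed at 569.6, 1155, 1629 and 1670.0 in MCD, at 497, 734, 672 and 392 in FCD, at 1640.0, 506, 498 and 568 in MFGRD and at 1413, 629.9, 2375 and 537 in FFGRD. ETFDH rose by a log2 fold change of 1.01 (SE 0.20, adjusted p = 0.000197). Every differentiated library except FCD replicate 4 lay above all 16 preadipocyte libraries, which were within 333 to 488. Once that library was left out, the stages did not overlap for ETFDH and ABCD2 among the members. The share of all genes without overlap was not counted, so nothing is read from this about the members as a set. The span of ETFDH on chromosome 17 (47622680 to 47668758) overlaps an unnamed gene by 5986 bases. ETFA and ETFB, the 2 subunits of the flavoprotein, had log2 fold changes of 0.22 (95% confidence interval −0.19 to 0.63) and 0.33 (−0.26 to 0.93). The log2 ratio of ETFDH to ETFA was higher after differentiation by 0.79 on average (standard deviation 0.57 within groups), but by 0.37 without the 9 libraries of low span slope. That of ETFDH to ETFB was higher by 0.68, and by 0.24 without them.

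**Figure D3:**
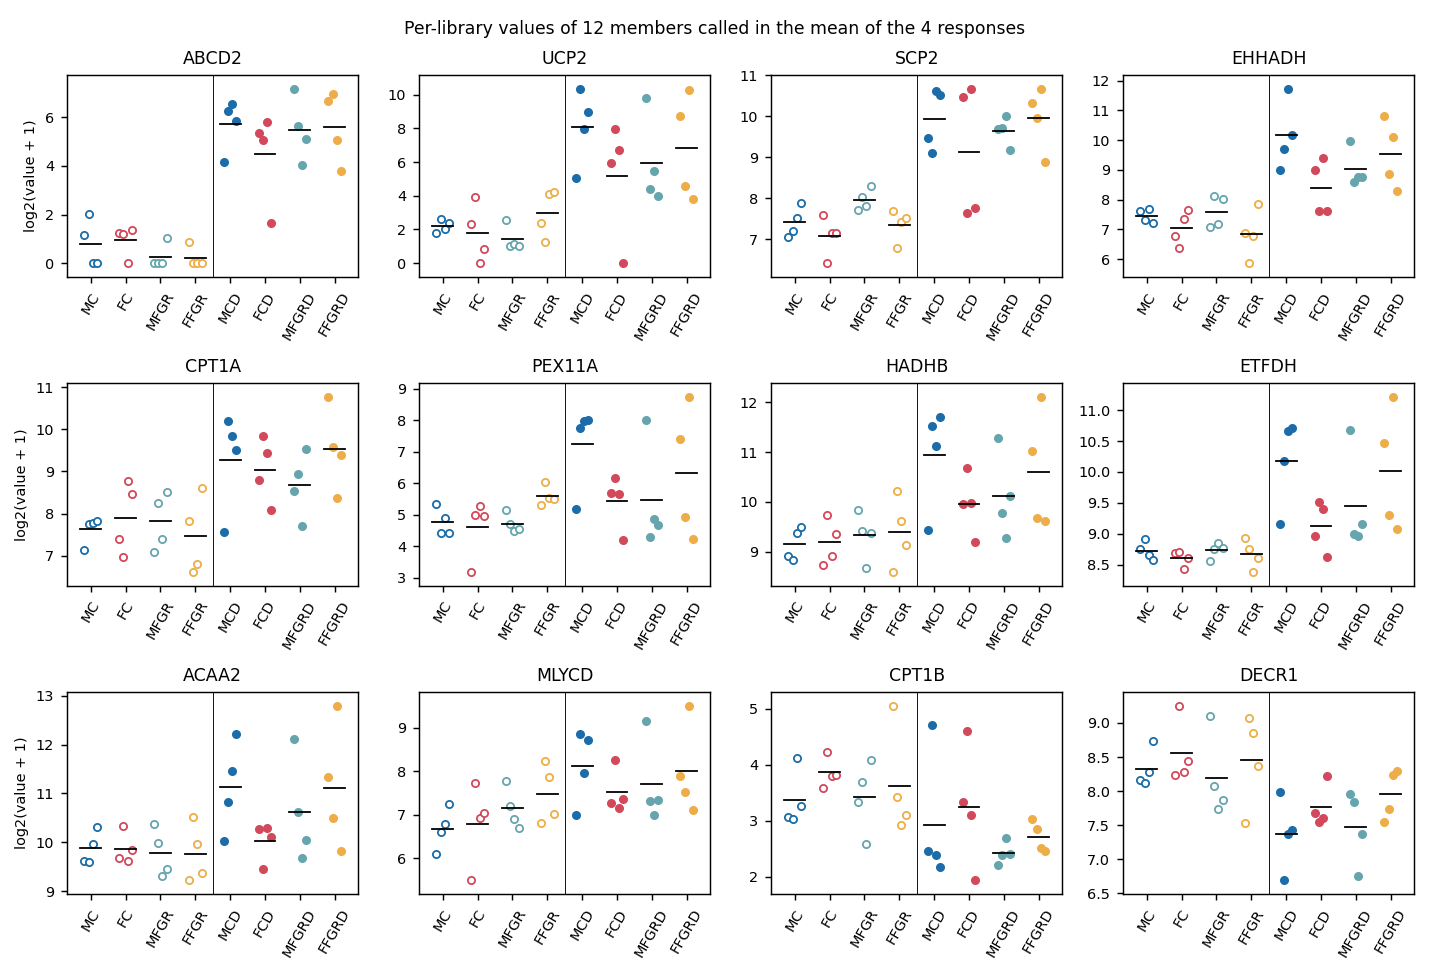
Values of 12 members in each library as log2(value + 1), by group, with a line at the group mean (open circles, preadipocytes, and filled circles, differentiated cells, 4 libraries a group). ABCD2, UCP2, SCP2 and EHHADH show the widest step between the stages, whereas CPT1B and DECR1 step down, and the lowest FCD circle of ABCD2 and UCP2 is replicate 4.

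Of the 12 peroxisomal members, 4 rose and none fell. ABCD2, a transporter of very long-chain acyl-CoA into the peroxisome, lies on chromosome 3 (158688253 to 158774272). ABCD2 in preadipocytes was listed at 1.22, 3.04, 0 and 0 in MC, at 1.37, 1.27, 0 and 1.54 in FC, at 0, 0, 0 and 1.06 in MFGR and at 0.8495, 0, 0 and 0 in FFGR. ABCD2 after differentiation was listed at 16.8, 74.8, 91.95 and 57.00 in MCD, at 40.1, 32.8, 54.8 and 2.11 in FCD, at 144, 48.6, 15.5 and 33.6 in MFGRD and at 99.6, 122, 32.8 and 12.7 in FFGRD. ABCD2 was at or under the value of 3 reads in 15 of 16 preadipocyte libraries, all but MC replicate 2, and was listed at 0 in 9 of them. It was above all of these in 15 differentiated libraries and at or under 3 reads in FCD replicate 4. In the fit of the listed values ABCD2 was called higher (limma adjusted p = 7.36e-10). ABCD2 passed the filter only through differentiated libraries, as no preadipocyte value exceeded 3.04, so its call is not independent of the filter. With no filter on low values its limma adjusted p was 1.32e-09. With each preadipocyte library at or under 3 reads set to 3 reads, ABCD2 was at least 9.61-fold higher after differentiation in the mean of the 4 groups. The bound was 5.22-fold in FC, 11.25-fold in MFGR and 12.5-fold in FFGR, and no test is attached to the bounds. Without FCD replicate 4 the bound in FC was 10.04-fold. Placing ABCD2 at this bound leaves the median of the members as it is. ABCD3, another peroxisomal ABCD transporter, stood at 0.18 on the log2 scale (95% confidence interval −0.16 to 0.52), with medians of 634 and 700.1.

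EHHADH is a peroxisomal bifunctional enzyme that hydrates and dehydrogenates the shortened chain. EHHADH in preadipocytes was listed at 197, 159, 203 and 146 in MC, at 109, 82.8, 160.1 and 202 in FC, at 134, 275, 145 and 260.1 in MFGR and at 116, 57.1, 109 and 228 in FFGR. EHHADH after differentiation was listed at 515, 839.7, 3414 and 1161 in MCD, at 508, 197, 676 and 194 in FCD, at 994, 384, 433 and 431 in MFGRD and at 1781, 468, 1105 and 312 in FFGRD. EHHADH rose by a log2 fold change of 2.04 (SE 0.28, adjusted p = 1.61e-06). All differentiated libraries except FCD replicates 2 and 4 exceeded the highest preadipocyte library. HSD17B4, the other bifunctional enzyme, had medians of 2030 and 2082 and a log2 fold change of 0.03 (95% confidence interval −0.28 to 0.33). The log2 ratio of EHHADH to HSD17B4 had a median of −3.58 (−4.56 to −3.13) in preadipocytes and −1.88 (−3.15 to −0.32) in differentiated cells, and 15 of 16 differentiated libraries lay above the whole preadipocyte range. It was higher after differentiation by 2.02 on average, and by 1.73 without the 9 libraries of low span slope.

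SCP2 encodes a peroxisomal thiolase for branched chains and, from the same gene, a sterol carrier protein. SCP2 in preadipocytes was listed at 133, 146, 182 and 234 in MC, at 193, 84.5, 141 and 141 in FC, at 208, 259, 224 and 315 in MFGR and at 207, 109, 171 and 182 in FFGR. SCP2 after differentiation was listed at 709, 553, 1582 and 1465 in MCD, at 1424, 198, 1642 and 217 in FCD, at 831, 844, 1027 and 576 in MFGRD and at 1292, 996, 1631 and 473 in FFGRD. SCP2 rose by a log2 fold change of 2.22 (SE 0.26, adjusted p = 2.12e-07). The exceptions were again FCD replicates 2 and 4, which lay within the preadipocyte range, while FCD replicate 3, at 1642, was the highest library of all.

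PEX11A is a membrane protein that takes part in the division of peroxisomes. PEX11A in preadipocytes was listed at 39.9, 20.6, 28.8 and 20.6 in MC, at 8.14, 30.9, 37.4 and 29.9 in FC, at 34.7, 25.1, 21.2 and 22.5 in MFGR and at 38.95, 65.2, 44.95 and 44.3 in FFGR. PEX11A after differentiation was listed at 35.02, 213, 252 and 258 in MCD, at 51.00, 71.2, 49.5 and 17.2 in FCD, at 253, 18.5, 28.2 and 24.4 in MFGRD and at 169.5, 29.4, 424 and 17.6 in FFGRD. PEX11A rose by a log2 fold change of 1.18 (SE 0.40, adjusted p = 0.0242). Its rise rested on 7 libraries, namely MCD replicates 2 to 4, FCD replicate 2, MFGRD replicate 1 and FFGRD replicates 1 and 3, and the other 9 lay within the preadipocyte range. The call was lost without the 9 libraries of low span slope (0.66 on the log2 scale, adjusted p = 0.185) and with library weights (0.70, adjusted p = 0.0725).

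No call was made for the other 6 peroxisomal members besides ABCD3 and HSD17B4. Their log2 fold changes were 0.51 for the branched-chain oxidase ACOX2, 0.46 for the thiolase ACAA1, 0.45 for PEX19, which brings membrane proteins to the peroxisome, 0.40 for the carnitine octanoyltransferase CROT, −0.19 for the phytanoyl-CoA hydroxylase PHYH and −0.25 for the oxidase ACOX3. The smallest adjusted p among them was 0.102, that of PEX19, whose whole span lies within that of CASQ1. ACOX2 was known from few reads, with a median of 5.01 in preadipocytes and 5.27 in differentiated cells, and its highest value of 79.7 was in FFGRD replicate 3.

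Of the receptors that control these genes and UCP2, 1 of 3 was called. UCP2, an uncoupling protein of the inner mitochondrial membrane, lies on chromosome 15 (56517336 to 56523911). UCP2 in preadipocytes was listed at 2.44, 5.04, 3.05 and 4.28 in MC, at 4.09, 14.03, 0 and 0.774 in FC, at 4.85, 1.07, 1.21 and 1.05 in MFGR and at 4.27, 1.404, 16.1 and 17.6 in FFGR. UCP2 after differentiation was listed at 32.3, 1311, 252 and 508 in MCD, at 61.6, 245, 102 and 0 in FCD, at 898, 20.1, 43.4 and 14.6 in MFGRD and at 416, 22.6, 1222 and 12.7 in FFGRD. UCP2 rose by a log2 fold change of 4.39 (SE 0.75, adjusted p = 4.40e-05). UCP2 too passed the filter only with its differentiated libraries, and with no filter on low values its limma adjusted p was 6.82e-05. In 9 preadipocyte libraries it was at or under 3 reads, so the size of the change depends on the pseudocount. It exceeded every preadipocyte library in 13 of 16 differentiated libraries, but the differentiated values themselves ran from 0 in FCD replicate 4 through a median of 81.6 to 1311 in MCD replicate 2. PPARD, a nuclear receptor for fatty acids, lay above the whole preadipocyte range in 13 of 16 differentiated libraries (median 353 against 237). Its log2 fold change of 0.56 (SE 0.10, adjusted p = 0.000119) stayed short of 1.5-fold. PPARA, the receptor best known for switching on fatty acid oxidation in liver, stood at −0.14 (95% confidence interval −0.50 to 0.22).

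The 4 differentiation responses differed in how many members were called, as the plot of responses by group shows. In control males 6 of 34 members rose (HADHB, ABCD2, EHHADH, SCP2, ETFDH and UCP2), or 17.6% against 3.8% of all genes called higher and 8.35% called in either direction. In control females 2 rose (ABCD2 and SCP2), or 5.88% against 1.08% of all genes called higher and 2.52% in either direction. In growth-restricted males 1 rose (ABCD2), or 2.94% against 2.03% higher and 5.13% in either direction. In growth-restricted females 6 rose (ABCD2, EHHADH, SCP2, CPT1A, ETFDH and PPARD), or 17.6% against 4.33% and 10.3%. No member was called lower in any single group, against 4.55% of all genes in control males, 1.44% in control females, 3.1% in growth-restricted males and 5.99% in growth-restricted females. ABCD2, which passed the filter only through differentiated libraries, was the only member called in all 4 groups. The median log2 fold change of the members was 0.94 in control males, 0.12 in control females, 0.30 in growth-restricted males and 0.51 in growth-restricted females.

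These counts depended on single libraries and on the pairing of libraries. With same-numbered libraries of an origin as a replicate block, 12 members were called in control males (10 higher, 2 lower) and 3 in growth-restricted males. All genes called then were 14.3% in control males (6.05% higher, 8.27% lower) and 9.01% in growth-restricted males (3.53% higher). Without MCD replicate 1, whose marker sum of 11600 was the lowest of its group, 11 members were called in control males. Without the 9 libraries of low span slope it was 4, all higher, and 8.18% of all genes were called (3.78% higher). In control females the count was 3 without FCD replicate 4, UCP2 being the added member (5.09, adjusted p = 0.0484), and 2.54% of all genes were called. It was 0 without FC replicate 3, FCD replicate 1 or FCD replicate 3 and 1 without FC replicates 2 or 4. In growth-restricted males, whose test shares the estimate of spread with the other groups, it was 3 without FCD replicate 4, with 5.21% of all genes called. It was 2 without FCD replicates 1, 2 or 3 or FFGRD replicate 4. In growth-restricted females it was 3 without FFGR replicates 2 or 3 or FFGRD replicate 1. Without the 9 libraries of low span slope it was 2, both higher, and 8.55% of all genes were called (3.06% higher). For the other single libraries left out the share of all genes is not given, so those counts are not set against it.

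**Figure D4:**
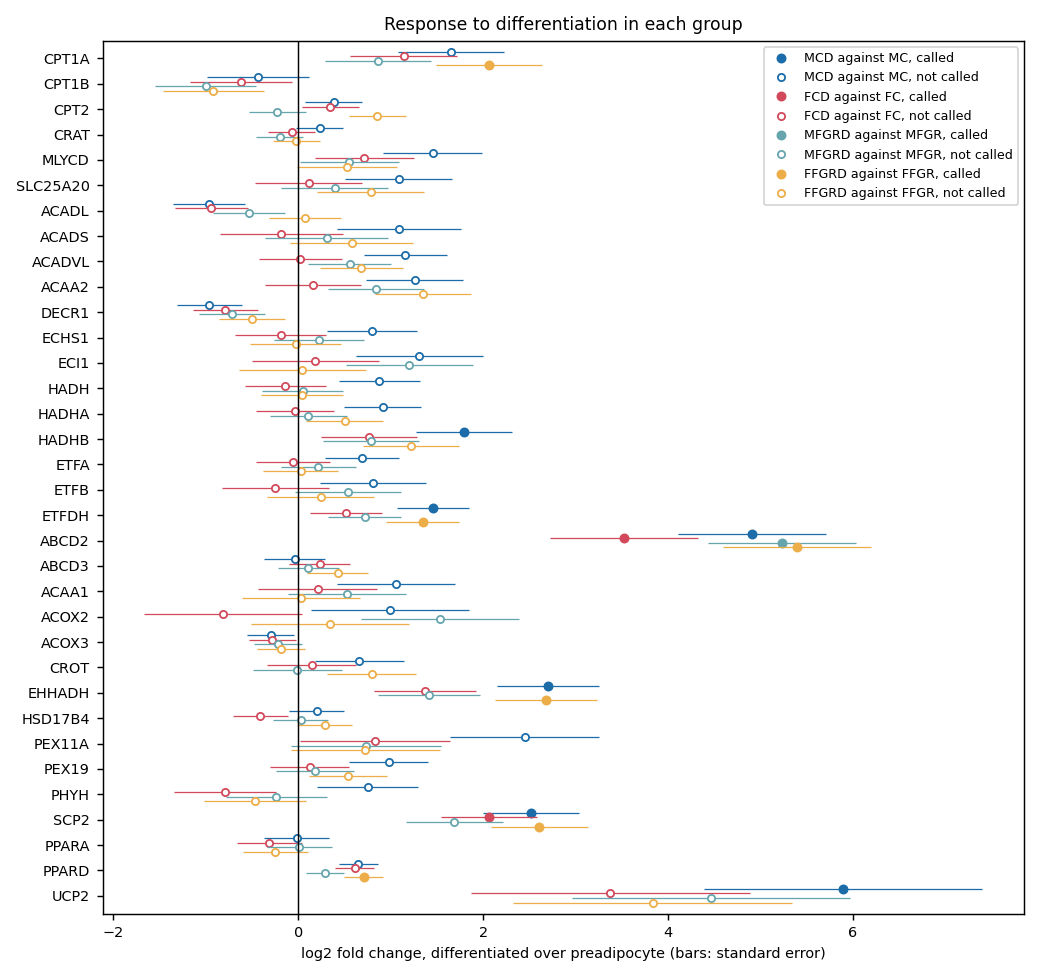
Log2 fold change of each member from preadipocytes to differentiated cells in the 4 groups of origin, with its standard error as a bar. Filled circles are members called in that group (6 in control males, 2 in control females, 1 in growth-restricted males and 6 in growth-restricted females). ABCD2 is filled in all 4 groups, and UCP2 lies far to the right with the longest bars.

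Whether the responses themselves differ was tested as a difference of responses. None of 34 members, and none of 12737 genes (0%), was called for growth restriction in either sex, in the mean of the sexes, for sex in controls or in growth restriction, or for growth-restricted males against the other 3 groups (limma). At an unadjusted p under 0.05 these comparisons held 61 to 159 genes, and 0 or 1 member, the 1 being CPT2. That is fewer genes than chance alone would give among 12737, so the lack of calls does not show that the responses are alike. The response of CPT2 was −0.23 (SE 0.31) in growth-restricted males and 0.85 (SE 0.31) in growth-restricted females, and the difference of −1.08 (SE 0.43) had an adjusted p of 0.9999. The largest differences by growth restriction were −1.72 for PEX11A in males (−4.06 to 0.63, 95% confidence interval) and 1.87 for ABCD2 in females (−0.46 to 4.19). Without FCD replicate 4 the latter was 0.92 (−1.14 to 2.98). The median half-width of the 95% confidence interval of a member was 1.46 on the log2 scale within a sex, and a call needs a difference larger than its own unadjusted interval, since p-values are adjusted over all genes.

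Growth restriction within a stage was likewise followed by no called member or gene (0%). Each of these comparisons held fewer genes at an unadjusted p under 0.05 than chance alone would give. Among preadipocytes, in the mean of the sexes, the members lay between −0.63 (ABCD2) and 0.57 (MLYCD) on the log2 scale, with a median half-width of 0.73, and no member reached an unadjusted p under 0.05 (344 genes did). In differentiated cells they lay between −0.52 (CPT1B) and 0.63 (ACOX2), with no member at an unadjusted p under 0.05 (136 genes). Within a sex the directions of differentiated cells were opposite. In males 30 of 34 members were lower in MFGRD than in MCD (52.6% of all genes were higher), led at an unadjusted p under 0.05 by PEX11A (−1.78, SE 0.81) and EHHADH (−1.15, SE 0.55), and in females 31 of 34 were higher in FFGRD than in FCD (45.4% of all genes), with ACOX2 (1.99, SE 0.85), ETFDH (0.89, SE 0.39) and ACAA2 (1.09, SE 0.52) at an unadjusted p under 0.05. No adjusted p was below 0.9999. Without FCD replicate 4, 30 members were higher in FFGRD, ACOX2 alone had an unadjusted p under 0.05, and the difference of UCP2 went from 1.68 to −0.04. ACOX2 is known from few reads, and it was listed at 1.58, 10.1, 79.7 and 5.98 in FFGRD. The directions were not counted without FFGRD replicate 3, the highest differentiated library for 18 members. The adipocyte marker sums moved the same way, with medians of 76830 in MCD, 10520 in MFGRD, 11610 in FCD and 36150 in FFGRD, and their part in these directions was not tested.

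The sexes were compared with the same outcome, no called member and no called gene (0%) in either stage or condition. Among control differentiated cells 28 of 34 members were higher in MCD than in FCD (47.6% of all genes), and 6 reached an unadjusted p under 0.05, namely EHHADH (1.75, SE 0.55), PHYH, ETFDH, PEX11A, ACOX2 and ACAA2 (adjusted p 0.875 or more). Without FCD replicate 4 these were EHHADH, PHYH and ETFDH. The MCD and FCD libraries are the same as in the comparisons for growth restriction. Among growth-restricted differentiated cells 2 of 34 members were higher in MFGRD than in FFGRD (55.3% of all genes). In growth-restricted preadipocytes CPT2 was higher in males (0.96, SE 0.31) and PPARA (−0.98, SE 0.35) and ACOX2 (−2.07, SE 0.85) were lower, all with an adjusted p of 0.946. PPARA was also lower in males among growth-restricted differentiated cells (−0.72, SE 0.35, adjusted p = 1.00). Over the 4 sex comparisons, 96 to 551 genes had an unadjusted p under 0.05, again fewer than chance alone would give. The paper, with DESeq2, reports genes that differ between the sexes in each of these 4 comparisons.

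The differentiated libraries differed widely in their adipocyte markers, and the members were set against the summed markers within them. FABP4 alone had a median of 10560 and a highest value of 167600 in these libraries, against 15150 and 189500 for the sum. By marker sum these libraries fall into 6 from 56060 to 189500, 9 from 5208 to 21730, and FCD replicate 4 alone, so correlations are given within the first 2 sets only, as a description with no test that was added after the values had been seen. The libraries of a set differ also in span slope. Those of low span slope are MCD replicates 2 and 4, MFGRD replicate 1 and FFGRD replicate 3 among the 6, and FCD replicate 2 among the 9. Over all 16 libraries the marker sum itself had r = −0.61 with span slope, and the part of span slope in these correlations was not tested. Among the 6 libraries, 25 of 34 members had a positive Pearson's r, with a median of 0.63, and among the 9 libraries 29 had, with a median of 0.19. These counts were not set against all genes within the 2 sets, so they are not read as a trait of the members. PEX11A had r = 0.81 and 0.44, ACADS 0.87 and 0.50, and ETFDH 0.77 and 0.35. UCP2 had 0.25 and 0.43, and SCP2 0.42 and 0.49. ABCD2 and EHHADH had opposite signs in the 2 sets, with −0.55 and 0.68 for ABCD2 and −0.30 and 0.44 for EHHADH. CPT1A had −0.82 and 0.084.

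**Figure D5:**
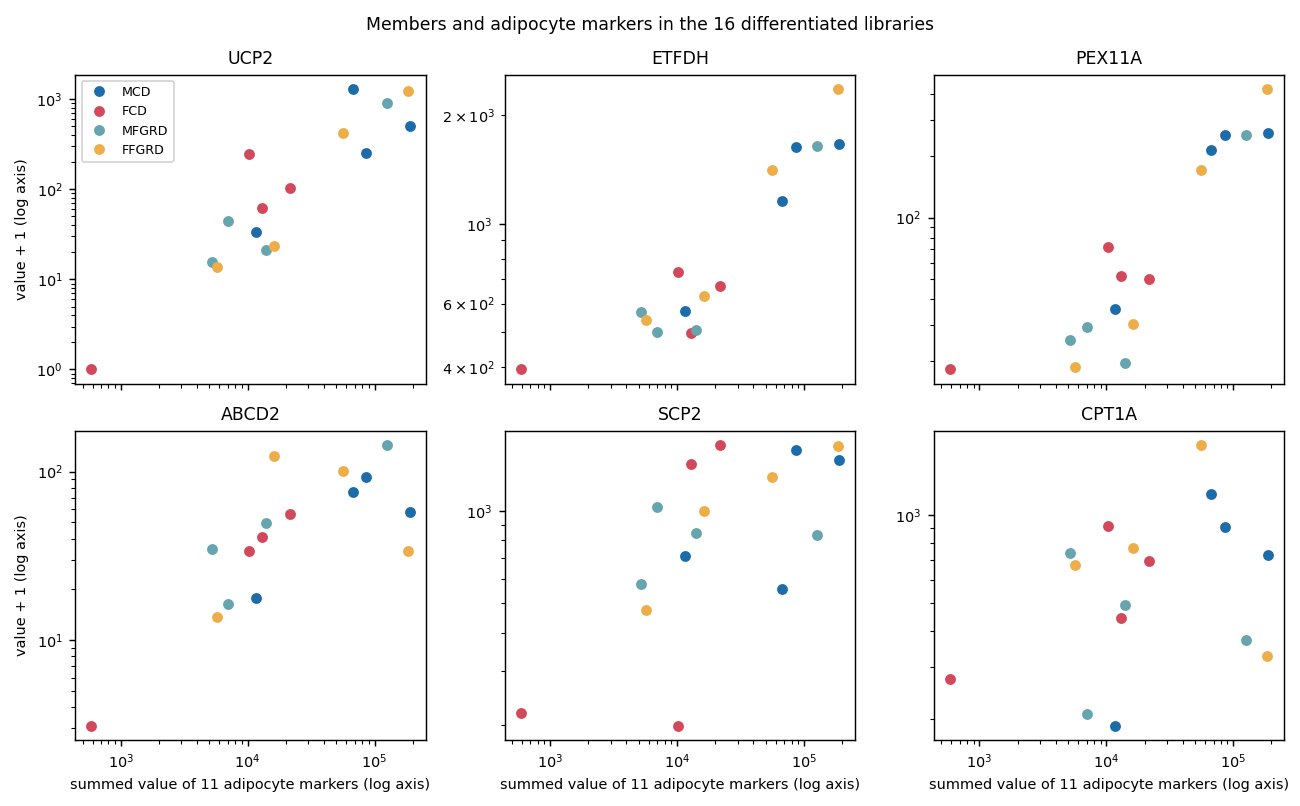
Value + 1 of 6 members (log axis) against the summed value of 11 adipocyte markers (log axis) in the 16 differentiated libraries, 1 circle per library. The 6 libraries at the right lie above the others in ETFDH and PEX11A, CPT1A scatters, and the circle far to the left is FCD replicate 4 (marker sum 585).

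Other genes of the pathway were listed beside the members, also with earlier results of these data known. Of 72 such genes 66 were found by name and 63 passed the filter, and in the mean of the 4 responses 15 rose (23.8%, against 12.4% of all genes) and 5 fell (7.94%, against 14.8%), with a median log2 fold change of 0.26. Genes that control oxidation held most of the rises, with 8 of 16 higher and 2 lower. Of 14 peroxins, which build peroxisomes, none was called in the mean response or in any of the 4 groups. Other mitochondrial enzymes gave 4 rises and 1 fall of 15, other peroxisomal enzymes 2 and 1 of 13, and ketone body genes 1 and 1 of 5. The largest rises were those of PDK4 (5.87, SE 0.59), the kinase that turns off pyruvate dehydrogenase when fatty acids are burnt, ACSM3 (4.76, SE 0.71), a medium-chain acyl-CoA synthetase, and UCP1 (3.71, SE 0.80), the uncoupling protein of brown fat, on the log2 scale. UCP1 had a median of 0 and a highest value of 2.10 in preadipocytes, and a median of 18.5 and a highest value of 680 in differentiated cells. Of the other brown adipocyte markers found, EBF2 rose (1.39, SE 0.45), CIDEA (0.07, SE 0.50, adjusted p = 0.943) and PRDM16 (−0.66, SE 0.49, adjusted p = 0.339) were not called, and PPARGC1A, also counted among the other genes of the pathway, rose (1.46, SE 0.45, adjusted p = 0.0129). The largest falls were those of the mitochondrial deacylases SIRT5 (−1.11, SE 0.17) and SIRT3 (−0.82, SE 0.26) and of BDH2 (−0.74, SE 0.22).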

How the data were processed

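RNA-seq libraries of perirenal preadipocytes and of adipocytes differentiated from them (32 libraries, 8 groups of 4) were analysed. Reads whose mean Phred score was under 34 were removed by the authors. The authors then assigned the rest to Ensembl transcripts (Oar_rambouillet_v1.0) with Salmon, and the authors used DESeq2 to normalize the counts. FastQC 0.11.9 is named in the submitters' processing notes. The deposited values are this normalized signal per transcript, which is not whole reads, so no count test was applied. The authors' own comparison columns, which hold fold changes and p-values, were not used.

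Values were summed per gene identifier, and genes with a sum of at least 10 in at least 4 libraries were kept. Log2(sum + 1) was fitted with limma 3.58.1 in R 4.3.3 (lmFit, contrasts.fit, eBayes with trend), with a mean for each of the 8 groups, and p-values were adjusted by Benjamini-Hochberg over all 12737 genes. Tables were prepared with pandas 2.3.3 and numpy 2.4.6. The fit was tested on simulated data. The approximate number of reads was taken from the most frequent of the lowest values of each library, read as 1 read, and 3 reads served as the floor, which covers counting error only. Per-library values are given for the 12 called members of largest mean response, and other pathway genes by counts with the 3 largest rises and falls. The members and lists were chosen with earlier results of these data known. Alternatives were the pseudocount, quantile scaling, filters, the libraries in the fit, a replicate block, span slope, library weights, the highest transcript and leaving out libraries. The last of these included the 9 libraries of low span slope together, which was added after seeing the data.

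The labels give preadipocytes and differentiated cells the same replicate numbers but do not say that a number marks one fetus. The correlation of the deviations of same-numbered libraries from their group means was 0.16 to 0.61 in MC, 0.30 to 0.51 in FC, 0.39 to 0.67 in MFGR and −0.40 to 0.56 in FFGR. The main fit took no pairs. The replicate block took the numbers as pairs in every origin, FFGR included. As the correlation went down to −0.40 in FFGR, the pairing is less well backed there than in the first 3. Block results for growth-restricted females and for the mean response include these FFGR pairs.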

Additional observations from a re-analysis of the deposited data

Results flagged for a closer look

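In 12 of 96 sets of 4 libraries (12 members in 8 groups), 1 library lay far from the other three, with a gap to the nearest above Dixon's 95% critical value, which chance alone gives in about 1 of 20 sets. MFGRD replicate 1 was the highest of its group for EHHADH (994), PEX11A (253), ETFDH (1640.0) and MLYCD (568), and its adipocyte marker sum of 126500 was the highest of that group. It is also the 1 library of its group with a low span slope (0.053), and with 16927 genes above 0 it holds the most of all 32 libraries. PEX11A was low in MCD replicate 1 (35.0), the MCD library of lowest marker sum, and in FC replicate 1 (8.14). CPT1A was low in MC replicate 1 (141), and CPT1B was high in MCD replicate 2 (25.0). Few reads stand behind the other 4, ABCD2 in FC replicate 3 (0), MFGR replicate 4 (1.06) and FFGR replicate 1 (0.85), and UCP2 in MFGR replicate 1 (4.85).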

How the results depend on the processing

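No result changed direction with a call, and the count of members called in the mean of the 4 responses stayed between 11 and 15 under every alternative run, leaving out single libraries included. All genes called in the mean response were 18.7% with no filter on low values and 33% with span slope as a covariate. The counts within groups moved, and the cause was not tested. Percentages below are of all genes called in the same fit, and none is given for fits that left out 1 library. In control males the count of 6 (8.35%) was 12 with the replicate block (14.3%). It was 11 with span slope as a covariate (17.2%), 20 with library weights (19%) and 4 to 11 when 1 library was left out. In control females the count of 2 (2.52%) was 1 with the stricter filter on low values (2.33%) and 0 in a fit of those libraries alone (0.4%). It was 4 with span slope (12.4%), 6 with library weights (15.7%) and 0 to 3 when 1 library was left out. In growth-restricted males the count of 1 (5.13%) was 0 with that filter (4.84%), which removes ABCD2, and 2 in a fit of those libraries alone (3.45%). It was 3 with the replicate block (9.01%), 4 with span slope (16.3%), 4 with library weights (15.2%) and 1 to 3 when 1 library was left out. In growth-restricted females the count of 6 (10.3%) was 2 in a fit of those libraries alone (2.58%) and 13 with span slope (20.6%). It was 2 without the 9 libraries of low span slope (8.55%) and 3 to 7 when 1 library was left out. Over all genes, the calls went from 1063 down to 576 and up to 2418 (1824 with the block) in control males, from 321 down to 51 and up to 1999 in control females, from 654 down to 375 and up to 2073 in growth-restricted males, and from 1315 down to 329 and up to 2618 in growth-restricted females, and in the mean response that filter gave 804 higher and 917 lower. In growth-restricted females, where the correlation of same-numbered libraries went down to −0.40, the block gave 8 members (17.2% of all genes). The block moved no other count of members by over 1.5 times. ABCD2, UCP2, SCP2, EHHADH, CPT1A, HADHB, ETFDH, ACAA2 and MLYCD were called in the mean response under each alternative that gave a value. No member was called for growth restriction, sex or a difference in response under any alternative run, where over all genes library weights called up to 6 and leaving out MCD replicate 1 called 15 for sex in control adipocytes. Members of few reads (ABCD2, CPT1B, ACOX2 and UCP2 in preadipocytes) are limited by depth.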
